A study of Mus musculus with 23 samples.

Results

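Sox genes encode transcription factors with an HMG box, a domain that bends DNA, and the 8 described here include genes used at opposite ends of neuronal differentiation. Sox1, Sox2 and Sox3 form the SoxB1 group, Sox9 belongs to SoxE, Sox21 to SoxB2, and Sox4, Sox11 and Sox12 form SoxC. They were chosen by name from the 20 Sox genes among 21938 protein-coding genes of the mouse annotation, and for each gene the peaks within 5 kb of its transcription start site (TSS) and up to 100 kb from it were counted in 8 peak lists. The question was how 2 marks of histone H3 were placed at the progenitor genes (SoxB1 and Sox9) and at the neuronal SoxC genes in early cortical neurons.

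The lists came from chromatin immunoprecipitation and sequencing (ChIP-seq) of cerebral cortex from mouse embryos of the Tg(Ebf2-EGFP)FB58Gsat strain, with EGFP under control of the Ebf2 gene. Every cell group was sorted from these transgenic embryos by fluorescence. EGFP-labelled (Ebf2-EGFP+) cells were taken at 3 stages, E11.5, then E13.5 and E15.5, whereas the unlabelled (Ebf2-EGFP-) cells came from E11.5 alone. Values given by stage follow that order. By the study's account the labelled cells of E11.5 are largely neurons of the preplate, which holds Cajal-Retzius and subplate neurons, those of E15.5 are largely Cajal-Retzius cells, and the unlabelled cells are largely neural stem and progenitor cells. No treatment was given, and how many embryos were pooled is not given in the sources used here. The 15 ChIP samples made 8 groups of mark and cell group, with 2 libraries each and 1 for H3K27ac of the unlabelled cells, and 8 input samples made 4 further groups. Only 1 list per ChIP group was used, with no peak heights and no read counts. Depth is therefore unknown, no replicate error can be given, and every difference between lists is described without a test. Where a mark covers part of a gene, a mark in some of the sorted cells and a weaker mark in all of them cannot be told apart.

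SoxB1 factors keep neural progenitors undifferentiated and overlap in function. Sox21 counteracts them, and Sox9 is used by progenitors and later by glia. SoxC factors act in cells that leave the cycle, where they turn on pan-neuronal genes. Acetylation of lysine 27 (H3K27ac) is found at active promoters and enhancers, while trimethylation of the same residue (H3K27me3) is placed by Polycomb complexes at silent developmental genes. A lysine carries only 1 of these modifications at a time.

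The lists differed in ways that touch every count below. The Ebf2-EGFP- list of H3K27ac held 1386 peaks, against 25793 to 102881 in the Ebf2-EGFP+ lists. The Ebf2-EGFP- list of H3K27me3 held 48963, against 1438 to 6721 in the Ebf2-EGFP+ lists. In the list labelled H3K27me3 of E11.5 Ebf2-EGFP- cells, 9 of 20 housekeeping genes had a peak within 5 kb of the TSS, close to the 48.2% of all TSS. H3K27ac was listed at only 4 of these 20 in Ebf2-EGFP- cells (4.17% of all TSS). In Ebf2-EGFP+ cells it was listed at 16 (49.9%), 15 (60.9%) and 19 (52.3%) of the 20 by stage. The E13.5 H3K27ac list marked 38 of 39 Hox genes, against 15 at E11.5 and 13 at E15.5. With H3K27me3, 28 of these 39 Hox genes were listed in Ebf2-EGFP- cells (48.2% of all TSS). In Ebf2-EGFP+ cells it was 0 (4.92%), 24 (9.31%) and 7 (1.06%) of 39 by stage. Of 10 progenitor markers, 6, 8 and 5 were acetylated by stage in Ebf2-EGFP+ lists, and 0 in the Ebf2-EGFP- list. The Ebf2-EGFP- list of H3K27me3 marked 6 of these 10, among them the progenitor genes Nes, Vim and Hes1, and also 7 of 10 pan-neuronal and 6 of 8 Cajal-Retzius markers, against the 48.2% of all TSS. Of 8 Cajal-Retzius markers the H3K27ac counts were 7, 8 and 6, against 2 (Reln and Tbr1) in the Ebf2-EGFP- list, and Ebf2 itself was acetylated at E11.5 and E13.5 and not at E15.5. Blood and vessel markers were acetylated at 1, 4 and 3 of 8 TSS in Ebf2-EGFP+ cells, and mesenchyme markers at 2, 3 and 1 of 4. GABAergic markers gave 3, 4 and 2 of 5, and pan-neuronal genes 8, 7 and 8 of 10. Over all TSS, H3K27ac was listed near 49.9%, 60.9% and 52.3% by stage in Ebf2-EGFP+ cells and near 4.17% in Ebf2-EGFP- cells. No marker count was tested against these shares. The part of these list differences in the results on Sox genes was not tested.

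Near the TSS, the Sox genes were listed with H3K27me3 in Ebf2-EGFP- cells and with H3K27ac in Ebf2-EGFP+ cells, and mostly in the same stretches of DNA. The lists do not give expression. In the study's RNA sequencing, Sox2 stayed higher in Ebf2-EGFP- than in Ebf2-EGFP+ cells at every stage. The H3K27me3 list of E11.5 Ebf2-EGFP- cells held 11 peaks within 5 kb of these TSS, and 10 of them overlapped an H3K27ac peak of E11.5 Ebf2-EGFP+ cells by at least 1 bp (43.0% of the 13538 such peaks near any TSS did so). Over the 11 peaks, 3073 of 3745 bp (82.1%) were shared, and no such share of bases was computed over all TSS. By group it was 2435 of 2490 bp (97.8%) at SoxC genes and 190 of 205 bp (92.7%) at Sox21. At SoxB1 genes it was 448 of 1050 bp (42.7%), where the Sox1 peak shared nothing. H3K27ac peaks of E11.5 Ebf2-EGFP+ cells covered 2103 bp per SoxC gene and 984 bp per SoxB1 gene. The part of this width in the shared bases was not tested. The stretches that lay upstream of the gene, and 2 inside coding sequence, are printed below because they carry the overlap of the 2 lists base by base. Each is given on the strand of its gene, in mm10, with the bases shared by both lists in capitals.
Sox2, upstream, chr3:34649373-34649657, plus strand: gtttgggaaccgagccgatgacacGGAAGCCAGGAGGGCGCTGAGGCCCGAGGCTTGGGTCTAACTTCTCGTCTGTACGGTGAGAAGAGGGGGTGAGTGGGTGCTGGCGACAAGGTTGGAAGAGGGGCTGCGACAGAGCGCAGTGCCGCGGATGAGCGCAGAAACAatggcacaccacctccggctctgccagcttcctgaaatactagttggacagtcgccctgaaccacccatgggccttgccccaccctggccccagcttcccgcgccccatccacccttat
Sox11, upstream, chr12:27342970-27343197, minus strand: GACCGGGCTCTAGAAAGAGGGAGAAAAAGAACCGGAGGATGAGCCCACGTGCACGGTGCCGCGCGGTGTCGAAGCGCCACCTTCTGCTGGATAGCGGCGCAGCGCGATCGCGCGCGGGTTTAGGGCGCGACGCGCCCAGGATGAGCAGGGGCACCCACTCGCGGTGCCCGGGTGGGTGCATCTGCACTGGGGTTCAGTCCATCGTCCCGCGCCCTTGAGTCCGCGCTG
Sox12, upstream, chr2:152398863-152399047, minus strand: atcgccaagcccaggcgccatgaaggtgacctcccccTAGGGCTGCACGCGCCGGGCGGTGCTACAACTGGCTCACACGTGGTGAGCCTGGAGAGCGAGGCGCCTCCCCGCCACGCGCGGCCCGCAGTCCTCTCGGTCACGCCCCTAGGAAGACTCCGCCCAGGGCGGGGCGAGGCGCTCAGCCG
Sox4, upstream, chr13:28958542-28958678, minus strand: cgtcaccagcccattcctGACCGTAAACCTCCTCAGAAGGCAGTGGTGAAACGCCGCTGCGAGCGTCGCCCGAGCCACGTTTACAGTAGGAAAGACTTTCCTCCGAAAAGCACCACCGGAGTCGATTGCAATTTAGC
Sox3, coding sequence, chrX:60892481-60892753, minus strand: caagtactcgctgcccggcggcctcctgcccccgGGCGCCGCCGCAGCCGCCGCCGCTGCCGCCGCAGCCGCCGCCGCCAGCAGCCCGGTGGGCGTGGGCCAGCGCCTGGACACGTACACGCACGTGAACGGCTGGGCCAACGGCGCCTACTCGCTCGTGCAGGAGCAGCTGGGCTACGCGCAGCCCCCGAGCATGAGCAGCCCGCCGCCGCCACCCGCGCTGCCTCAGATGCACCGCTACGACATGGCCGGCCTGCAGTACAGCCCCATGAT
Sox21, coding sequence, chr14:118235260-118235464, minus strand: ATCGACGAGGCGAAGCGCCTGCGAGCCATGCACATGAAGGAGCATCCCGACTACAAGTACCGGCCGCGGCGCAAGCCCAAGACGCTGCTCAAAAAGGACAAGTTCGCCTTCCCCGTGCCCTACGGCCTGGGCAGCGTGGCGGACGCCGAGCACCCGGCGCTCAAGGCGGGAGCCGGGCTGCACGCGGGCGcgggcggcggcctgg
In the Sox11 stretch every base was in both lists. In the Sox2 stretch the shared 142 bp were a whole H3K27ac peak lying inside the H3K27me3 peak. The 4 upstream stretches had a GC content of 62.8%, 68.4%, 73.0% and 56.2% in the order printed, and held 17, 29, 21 and 12 CpG dinucleotides.

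**Figure D1:**
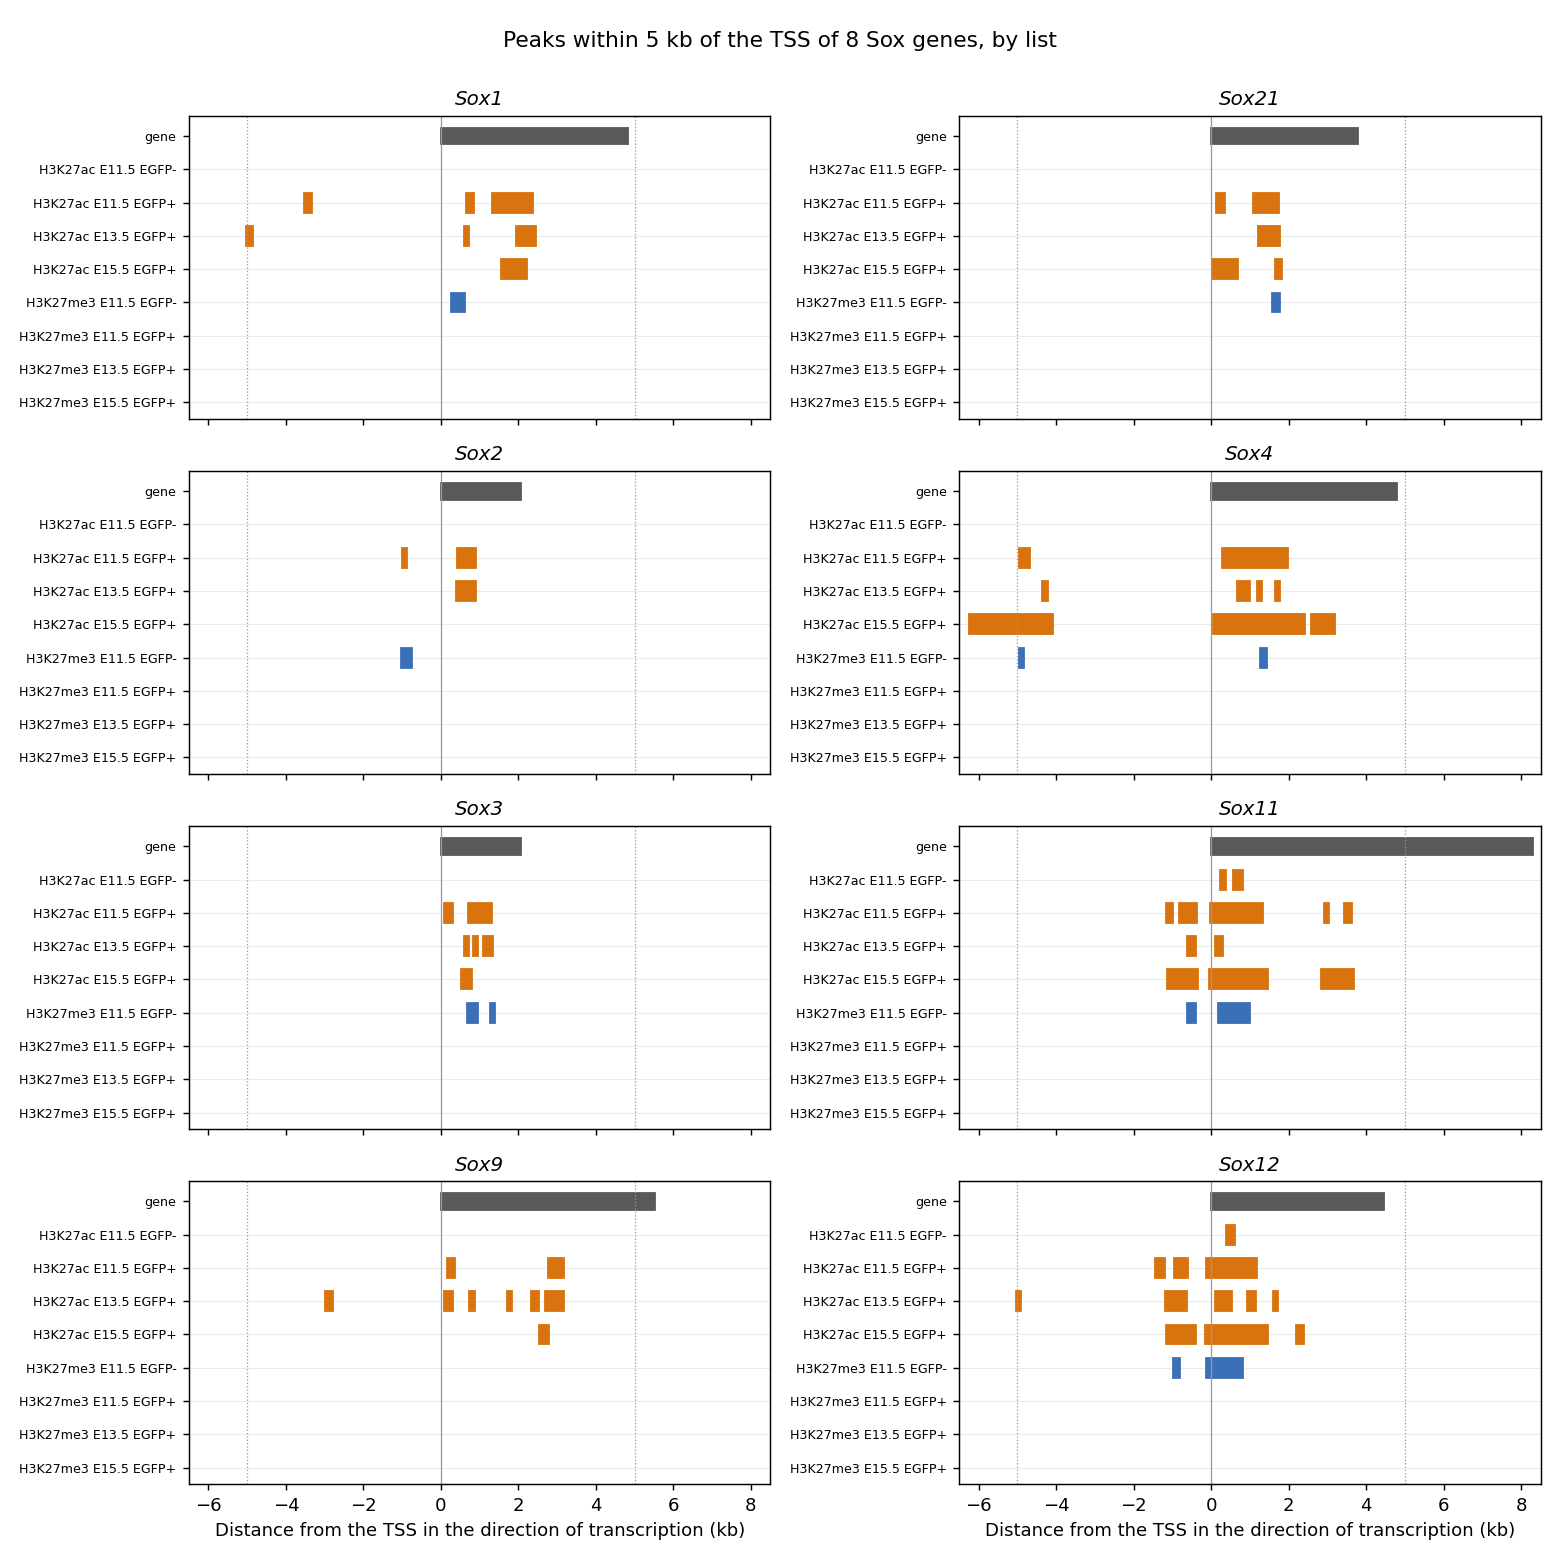
Peaks within 5 kb of the TSS of each Sox gene, drawn to scale against distance from the TSS in kb, with the gene as a grey bar, H3K27ac peaks in orange and H3K27me3 peaks in blue, 1 row per list (EGFP stands for Ebf2-EGFP). Peaks sat mostly inside the gene body, the 3 SoxC genes carried the widest H3K27ac peaks at E11.5 and E15.5 but not at E13.5, and the H3K27me3 rows of Ebf2-EGFP+ cells were empty for all 8 genes.

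Counted over genes, H3K27ac was listed within 5 kb of the TSS of 2 of the 8 Sox genes in Ebf2-EGFP- cells (4.17% of all TSS). In Ebf2-EGFP+ cells it was listed at 8 (49.9%), 8 (60.9%) and 7 (52.3%) by stage. H3K27me3 was listed at 7 of 8 in the unlabelled cells (48.2%) and at 0 of 8 in each Ebf2-EGFP+ list, where 4.92%, 9.31% and 1.06% of all TSS had it by stage. With so few TSS marked in those 3 lists, 85.9% of all TSS had no H3K27me3 in any of them. The 74 peaks concerned were 3, 21, 25 and 14 in the H3K27ac lists and 11 in the H3K27me3 list. Of these, 42 touched coding sequence, 20 lay wholly upstream of the gene and only 5 covered the TSS itself. Such positions were not counted for other genes, and most members have only 1 exon. The GC content of the 74 peaks had a median of 68.5% and ran from 47.8% to 79.6%.

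The sum of bases under peaks within 5 kb of the TSS, called coverage here, gives the spread between members. It measures width and number of peaks, not signal height.

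**Figure D2:**
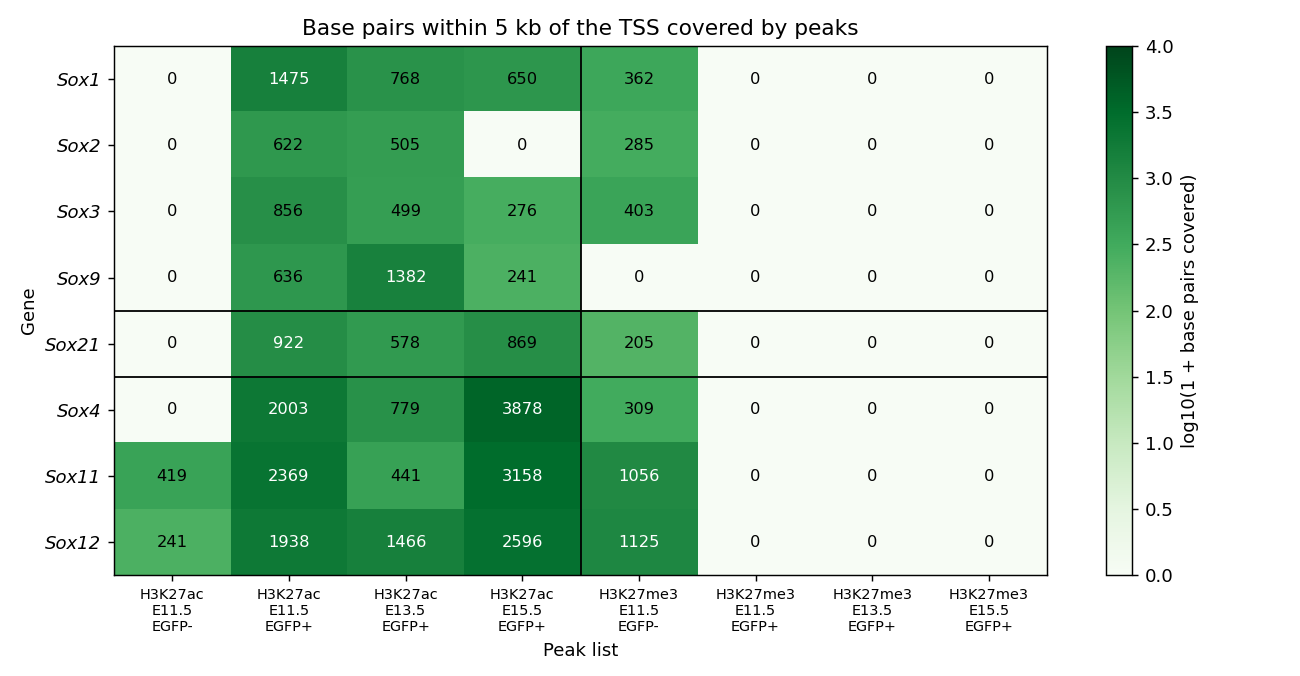
Base pairs within 5 kb of the TSS under peaks, by gene (rows, with SoxB1 genes and Sox9 on top, Sox21 in the middle and SoxC genes at the bottom) and list (columns), coloured on a log10(1 + bp) scale with the values printed. The largest values, 3878, 3158 and 2596 bp, belong to the SoxC genes in the E15.5 H3K27ac list.

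Among the SoxB1 genes, Sox1 had the most H3K27ac. Sox1 (ENSMUSG00000096014.1, chr8:12395295-12400126, plus strand, 1 exon) was covered by 0 bp of H3K27ac in Ebf2-EGFP- cells. Its coverage by stage in Ebf2-EGFP+ cells was 1475, 768 and 650 bp. At E11.5 the largest of its 3 peaks, of 1079 bp, lay over the coding sequence 1845 bp from the TSS, and only 0.898% of all TSS had as much coverage. Its coding sequence was listed at every stage, with 267 bp in all 3 lists. H3K27me3 covered 362 bp of its untranslated 5′ end in Ebf2-EGFP- cells.

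Sox2, needed for the self-renewal of neural stem cells, was the member without acetylation at E15.5. Sox2 (ENSMUSG00000074637.7, chr3:34650405-34652461, plus strand, 1 exon) lies inside the noncoding gene Sox2ot, and strand was not recorded by the assay. Its H3K27ac coverage was 0 bp in Ebf2-EGFP- cells and 622, 505 and 0 bp by stage in Ebf2-EGFP+ cells. A coding peak of 480 bp at E11.5 and of 505 bp at E13.5 overlapped each other. The pattern of H3K27ac at E11.5 and E13.5 without E15.5 held for 7.43% of all TSS. The 285 bp of H3K27me3 in Ebf2-EGFP- cells are the upstream stretch printed above, centred at -890 bp from the TSS.

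Sox3, an X-linked SoxB1 gene, had coverage below that of Sox1 in each H3K27ac list of Ebf2-EGFP+ cells. Sox3 (ENSMUSG00000045179.9, chrX:60891366-60893430, minus strand, 1 exon) had 0 bp of H3K27ac in Ebf2-EGFP- cells and 856, 499 and 276 bp by stage in Ebf2-EGFP+ cells. All of its 6 acetylated peaks lay in coding sequence. The 3 stages had only 2 bp in common, as the E13.5 list split the region into 3 short peaks. Its 2 H3K27me3 peaks in Ebf2-EGFP- cells covered 403 bp, the most of the SoxB1 genes.

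Sox9 differed from the SoxB1 genes in 2 respects. Sox9 (ENSMUSG00000000567.5, chr11:112782224-112787760, plus strand, 3 exons) was the only member with no H3K27me3 peak within 5 kb in Ebf2-EGFP- cells, a state with neither mark that 51.1% of all TSS shared. Its H3K27ac coverage in Ebf2-EGFP+ cells was 636 bp at E11.5, 1382 bp at E13.5 and 241 bp at E15.5, against 0 bp in Ebf2-EGFP- cells. It was thus highest at E13.5, where 1.24% of all TSS had as much and where 6 separate peaks were listed, the most for any member. The E13.5 list is also the longest of the 8. A stretch of coding sequence about 3 kb into the gene was listed at each stage, though all 3 peaks shared only 17 bp.

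Sox21, the SoxB2 gene that opposes SoxB1 activity, had nearly equal coverage at the first and last stage. Sox21 (ENSMUSG00000061517.8, chr14:118233232-118237030, minus strand, 1 exon) had 922, 578 and 869 bp of H3K27ac in Ebf2-EGFP+ cells by stage and 0 bp in Ebf2-EGFP- cells. The same 2 places were listed at both stages, with different widths. At E11.5 the larger peak, of 681 bp, lay 1415 bp from the TSS over the start of the coding sequence and untranslated bases before it, whereas at E15.5 the larger, of 676 bp, lay in the untranslated 5′ end 365 bp from the TSS. Each overlapped a smaller peak of the other stage, of 193 bp and 241 bp. That second region also overlaps an exon of the noncoding gene Gm4675. The 205 bp of H3K27me3 in Ebf2-EGFP- cells, printed above, were all coding.

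The SoxC genes had the most H3K27ac of the members at E11.5 and E15.5. Sox4 (ENSMUSG00000076431.4, chr13:28948919-28953713, minus strand, 1 exon) was covered by 0 bp in Ebf2-EGFP- cells and by 2003, 779 and 3878 bp by stage in Ebf2-EGFP+ cells. Its E15.5 value was the highest of any member in any list, and 0.0912% of all TSS reached it. It rested on a peak of 2363 bp over the coding sequence, 1 of 609 bp further into the gene, and an upstream peak of 2152 bp that ran past the 5 kb limit. The noncoding gene Gm26735 has exons under the first pair. In the E11.5 and E13.5 lists the same upstream region held 3 separate peaks each, of 219 to 488 bp and of 161 to 251 bp. H3K27me3 in Ebf2-EGFP- cells covered 309 bp in 2 peaks, 1 coding and 1 in that upstream region.

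Sox11 was 1 of 2 members acetylated in Ebf2-EGFP- cells too. Sox11 (ENSMUSG00000063632.6, chr12:27334264-27342574, minus strand, 1 exon) had 419 bp of H3K27ac in Ebf2-EGFP- cells and 2369, 441 and 3158 bp by stage in Ebf2-EGFP+ cells. At E11.5 its coverage was the highest of the 8 members, and 0.0593% of all TSS had as much. A peak over the TSS measured 1366 bp at E11.5 and 1502 bp at E15.5, while the E13.5 list held 2 short peaks of 215 and 226 bp. H3K27me3 in Ebf2-EGFP- cells covered 1056 bp, of which 828 bp were 1 peak in coding sequence.

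Sox12 followed the same order with less contrast between stages. Sox12 (ENSMUSG00000051817.8, chr2:152393611-152398063, minus strand, 2 annotated transcripts) had 241 bp of H3K27ac in Ebf2-EGFP- cells and 1938, 1466 and 2596 bp by stage in Ebf2-EGFP+ cells. A peak over its TSS was 1311 bp wide at E11.5 and 1612 bp at E15.5. The upstream region about 0.8 kb before the TSS was listed at every stage. Its 1125 bp of H3K27me3 in Ebf2-EGFP- cells were the most of any member, and 0.766% of all TSS had as much. Both Sox11 and Sox12 were thus listed with both marks in Ebf2-EGFP- cells, a state of 3.42% of all TSS, and all 3 of their H3K27ac peaks there overlapped an H3K27ac peak of E11.5 Ebf2-EGFP+ cells (84.6% of such peaks near any TSS did). Acetylation in all 4 H3K27ac lists, shown by these 2 members, held for 3.40% of all TSS.

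Set side by side, the SoxC genes and the progenitor genes were apart at E11.5, overlapped at E13.5 and were farthest apart at E15.5. At E11.5 in Ebf2-EGFP+ cells the SoxC genes had 1938 to 2369 bp of H3K27ac and the SoxB1 genes and Sox9 622 to 1475 bp, which is 2103 against 897 bp per gene, a ratio of 2.34. At E13.5 the ranges were 441 to 1466 bp and 499 to 1382 bp, and the means 895 and 788 bp, a ratio of 1.14. At E15.5 they were 2596 to 3878 bp against 0 to 650 bp, with means of 3211 and 292 bp. Over all TSS the mean was 252, 281 and 402 bp at these stages and the median 0, 176 and 194 bp. At E15.5 the progenitor genes thus lay below all TSS by the mean but above them by the median, which was 258 bp for these 4 genes. Without Sox9 the ratios were 2.14, 1.52 and, at E15.5, 10.4. At E13.5 the ratio depended on the window, and was 1.93 within 2 kb of the TSS. In H3K27me3 of Ebf2-EGFP- cells the SoxC genes also had more, 830 against 262 bp per gene, although the ranges of 309 to 1125 bp and 0 to 403 bp overlapped.

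**Figure D3:**
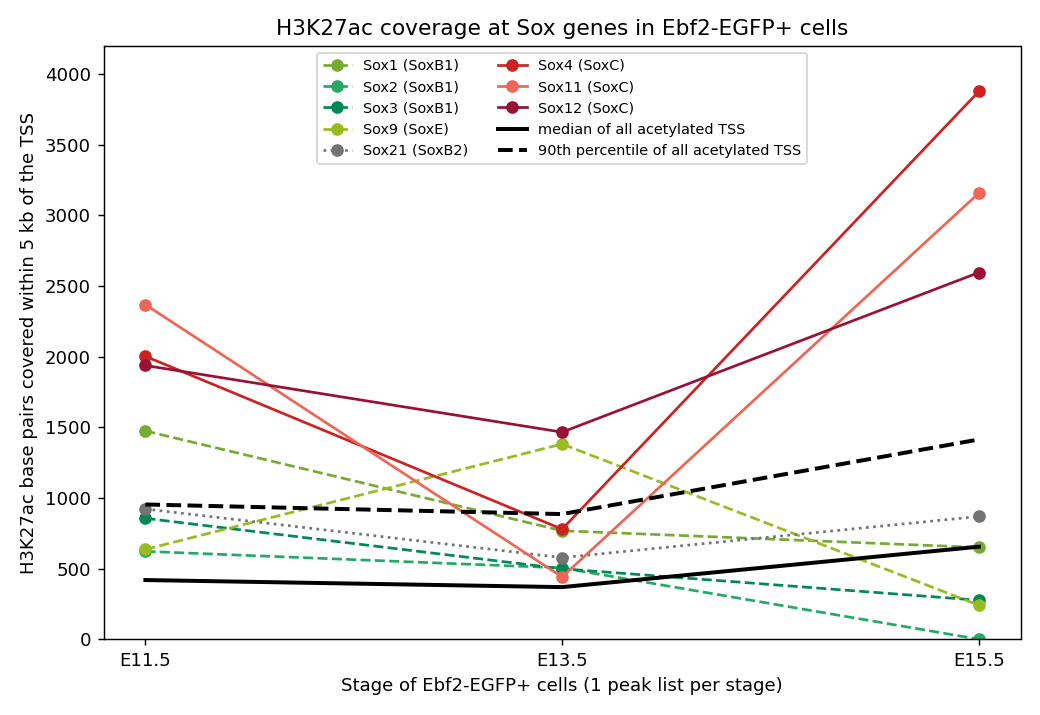
H3K27ac base pairs covered within 5 kb of the TSS in Ebf2-EGFP+ cells (y axis) by stage (x axis), 1 point per gene and list, with SoxC genes as solid, SoxB1 genes and Sox9 as dashed and Sox21 as dotted coloured lines. Black lines are the median and the 90th percentile of all acetylated TSS in each list; at E15.5 the SoxC genes sit above 1414 bp, the 90th percentile, and the SoxB1 genes and Sox9 below 655 bp, the median.

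Coverage at E15.5 was set against that at E11.5 for each member and for all genes. Over the 8784 TSS acetylated at both stages the median coverage was 475 bp at E11.5 and 771 bp at E15.5, the median ratio was 1.53, and 82.5% had more at E15.5. The ratio was 1.94 for Sox4, 1.33 for Sox11 and 1.34 for Sox12, and 32.9%, 61.9% and 61.5% of these TSS had a ratio at least as high. The SoxC genes therefore lay within the bulk of the general difference between the lists, and the ratio of Sox4 was 1.13 within 2 kb of the TSS. It was 0.441 for Sox1, 0.322 for Sox3 and 0.379 for Sox9, and 97.8%, 99.0% and 98.6% of TSS had a ratio at least as high, which puts them at the low end. Sox2 had no coverage at E15.5, so its ratio was 0. For Sox21 it was 0.943, with 85.1% at least as high, and 1.17 when counted within 10 kb. Over all 21938 TSS, 45.3% had more coverage at E15.5 and 16.9% less.

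Lists of equal length were also compared, since the lists differed so much in size. Among the 1386 widest peaks of each H3K27ac list, the E11.5 Ebf2-EGFP+ list still marked Sox1, Sox4, Sox11 and Sox12 (6.25% of all TSS) and the E15.5 list Sox4, Sox11 and Sox12 (6.87%). From E13.5, whose 1386 widest peaks were 726 bp or wider, it was 0 of 8 (1.39%). Of the 1438 widest H3K27me3 peaks of Ebf2-EGFP- cells, 543 bp or wider, those at Sox11 and Sox12 remained (2.98% of all TSS).

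Taking both marks of a cell group as a state, Sox1, Sox2, Sox3, Sox21 and Sox4 were listed with H3K27me3 only in E11.5 Ebf2-EGFP- cells (44.7% of all TSS), Sox11 and Sox12 with both, and Sox9 with neither. In Ebf2-EGFP+ cells all 8 were listed with H3K27ac only at E11.5 (46.4%) and likewise at E13.5 (52.5%), and 7 were at E15.5 (51.5%), where Sox2 had neither (47.4%). At E11.5, H3K27me3 only in Ebf2-EGFP- cells together with H3K27ac only in Ebf2-EGFP+ cells was therefore found at 5 of 8 members, progenitor and neuronal genes alike, and at 28.9% of all TSS. H3K27me3 in the first and H3K27ac in the second was found at 7 of 8 (34.8%). Acetylation at all 3 stages was found at 7 of 8 (33.1%).

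Overlap between the stages was then counted. Of the 21 peaks of E11.5 Ebf2-EGFP+ H3K27ac near Sox TSS, 13 overlapped an E13.5 peak (48.8% of such peaks near any TSS) and 14 an E15.5 peak (62.0%). From the other end, 12 of the 14 E15.5 peaks overlapped an E11.5 peak (58.2%). Bases acetylated in all 3 lists made up 3 stretches of 145, 145 and 328 bp at Sox4, 2 of 215 and 226 bp at Sox11 and 3 of 228, 441 and 324 bp at Sox12. Outside SoxC there was 1 stretch each at Sox1 (267 bp), Sox21 (113 bp), Sox9 (17 bp) and Sox3 (2 bp), and none at Sox2.

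The 12 other Sox genes are given for comparison, without a test. Of these 12, 11 had an H3K27me3 peak within 5 kb in the unlabelled cells (48.2% of all TSS, and 7 of the 8 members). By stage in Ebf2-EGFP+ lists 2 (4.92%), 6 (9.31%) and 0 (1.06%) had one, against 0 of 8 members at each stage. Those of E11.5 were Sox8 and Sox13, and at E13.5 Sox10, Sox14, Sox17 and Sox18 were listed as well, each of the 6 together with H3K27ac. H3K27ac was listed at 1 of 12 in Ebf2-EGFP- cells (4.17% of all TSS) and by stage at 7 (49.9%), 11 (60.9%) and 7 (52.3%) in Ebf2-EGFP+ cells. The mean coverage was 197, 526 and 312 bp per gene, against 1353, 802 and 1458 bp for the 8 members. Paralogues of Sox9 and Sox21 were among them. Sox8, also SoxE, had 657, 852 and 486 bp of H3K27ac by stage together with 123 and 167 bp of H3K27me3 at E11.5 and E13.5. Sox10, the SoxE gene of neural crest and oligodendrocytes, had 0, 435 and 224 bp of H3K27ac with 140 bp of H3K27me3 at E13.5. Sox14, the SoxB2 paralogue of Sox21, had 229, 1135 and 256 bp of H3K27ac with 297 bp of H3K27me3 at E13.5. Sry, the male-determining gene, had no peak within 5 kb in any list.

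**Figure D4:**
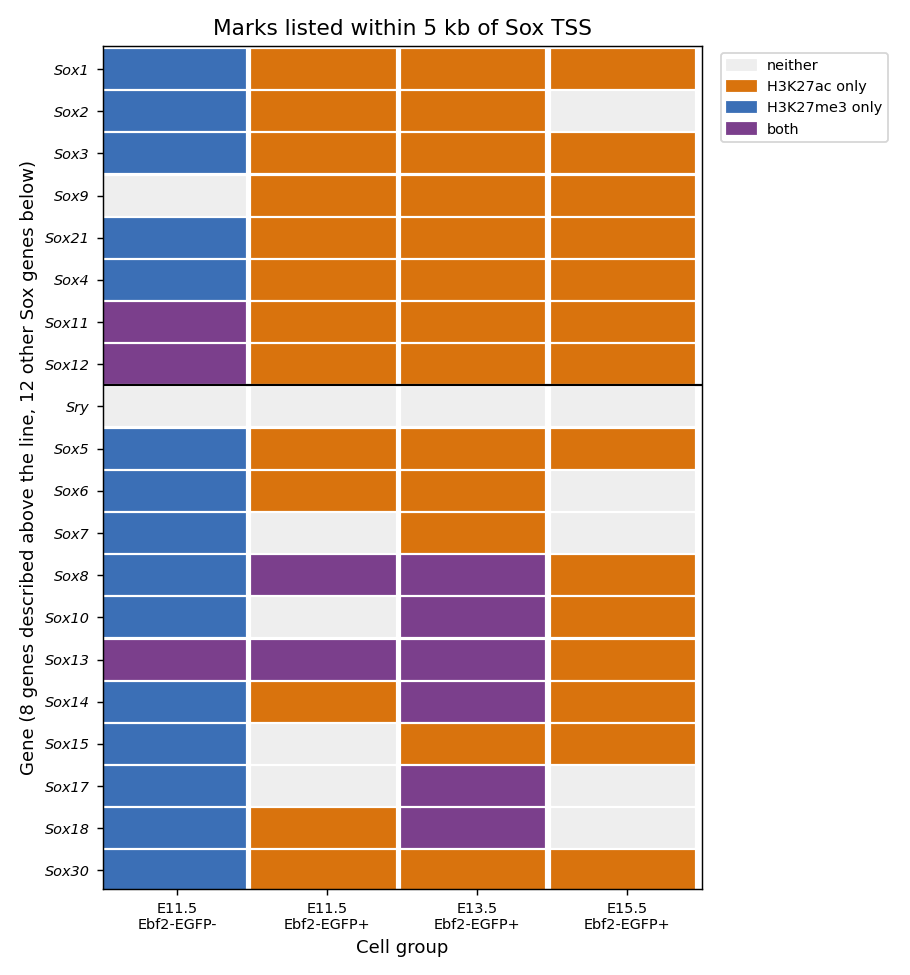
State of each Sox gene (rows, the 8 members above the line and 12 other Sox genes below it) in each cell group (columns) by the marks listed within 5 kb of the TSS. All 8 members were orange (H3K27ac only) in E11.5 and E13.5 Ebf2-EGFP+ cells, where 2 and 6 of the 12 others were purple (both marks).

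Farther from the TSS, from 5 to 100 kb, the members had 27, 79 and 19 H3K27ac peaks by stage in Ebf2-EGFP+ cells, and 1 in the unlabelled cells. Of H3K27me3 they had 8, 4 and 0, and 42 in the unlabelled cells. At least 1 such H3K27ac peak was found for 1 of 8 members in Ebf2-EGFP- cells (14.2% of all genes), and by stage for 7 (85.7%), 8 (96.8%) and 5 (80.1%) in Ebf2-EGFP+ cells. H3K27me3 gave 8 of 8 (90.7%), then 3 (47.8%) and 1 (48.1%) at the first 2 stages. The shares of all genes were high for H3K27ac in Ebf2-EGFP+ cells and for H3K27me3 in Ebf2-EGFP- cells. In those lists the presence of a distal peak separated few genes, and the numbers by gene say more.

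Sox11 and Sox3 had the fewest. Sox11 had 0, 2 and 0 distal H3K27ac peaks by stage in Ebf2-EGFP+ cells and 1 H3K27me3 peak in Ebf2-EGFP- cells, while the nearest other protein-coding TSS lies 873 kb away and the median over all genes was 4, 10 and 3 for H3K27ac. Sox4 had 2, 4 and 2, of which those of E11.5 and 2 of E13.5 were the upstream region 5.3 to 6.0 kb before the TSS that the 2152 bp peak of E15.5 spans. Sox12 had the most, with 11, 21 and 10 H3K27ac peaks and 14 of H3K27me3 in Ebf2-EGFP- cells. Its surroundings hold 8 other protein-coding TSS within 100 kb, and Sox12 was the gene with the nearest TSS for 0, 2 and 0 of those acetylated peaks. The peaks around Sox12 can therefore not be given to it.

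Among the progenitor genes, Sox1 had 8, 20 and 2 distal H3K27ac peaks by stage, and 9 of H3K27me3 in Ebf2-EGFP- cells. At 6.2 kb from its TSS, within the noncoding gene Sox1ot, an E11.5 Ebf2-EGFP+ H3K27ac peak overlapped an H3K27me3 peak of Ebf2-EGFP- cells. Sox1 was also the only member with distal H3K27me3 in Ebf2-EGFP+ cells at both E11.5 (3 peaks) and E13.5 (4). Sox9, which lacked H3K27me3 near its TSS, had 5 such peaks between 14.3 and 69.6 kb away in Ebf2-EGFP- cells. Those 14.3 kb before and 69.6 kb after the TSS overlapped 2 of its 10 acetylated peaks of E13.5, and it had 1 acetylated peak at E11.5 and 0 at E15.5.

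Sox3 had a single distal site listed in several groups. It lay 64.6 kb before the TSS (chrX:60957936-60958121 in the H3K27me3 list of Ebf2-EGFP- cells) and was listed with H3K27ac at E11.5 and E13.5 of Ebf2-EGFP+ cells and not at E15.5. The nearest other protein-coding gene, Cdr1, starts 292 kb from Sox3. Sox2 had 1, 4 and 2 acetylated distal peaks in Ebf2-EGFP+ cells by stage, none of which overlapped another list. It was the only member with a distal H3K27ac peak in Ebf2-EGFP- cells, of 157 bp, 20.0 kb after the TSS and within Sox2ot. Peaks at 37.3 kb (E13.5) and 37.6 kb (E15.5) from its TSS lay next to each other without overlap.

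Sox21 had 3, 16 and 3 acetylated distal peaks by stage and 8 of H3K27me3 in Ebf2-EGFP- cells. At 74.4 and about 81.0 kb after its TSS, inside the neighbouring gene Gpr180, H3K27me3 was listed in both Ebf2-EGFP- and Ebf2-EGFP+ cells at E11.5, the only such pair among its distal peaks. Of the 27 distal peaks of E11.5, 8 overlapped an E13.5 peak (30.2% of peaks far from any TSS) and 5 an E15.5 peak (8.98%). These shares leave out peaks within 5 kb of any protein-coding TSS, whereas 4 of the 27 lay that close to another gene's TSS. All 5 overlaps with E15.5 were at Sox4 and Sox12. The single distal stretch acetylated at all 3 stages lay 65.6 kb from the Sox12 TSS, within 5 kb of another gene's TSS. Of the 42 distal H3K27me3 peaks of Ebf2-EGFP- cells, 6 overlapped E11.5 Ebf2-EGFP+ acetylation, against 10 of 11 near the TSS. Among all such peaks over 5 kb from any protein-coding TSS it was 4797 of 35425, and only 35 of the 42 lay that far.

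**Figure D5:**
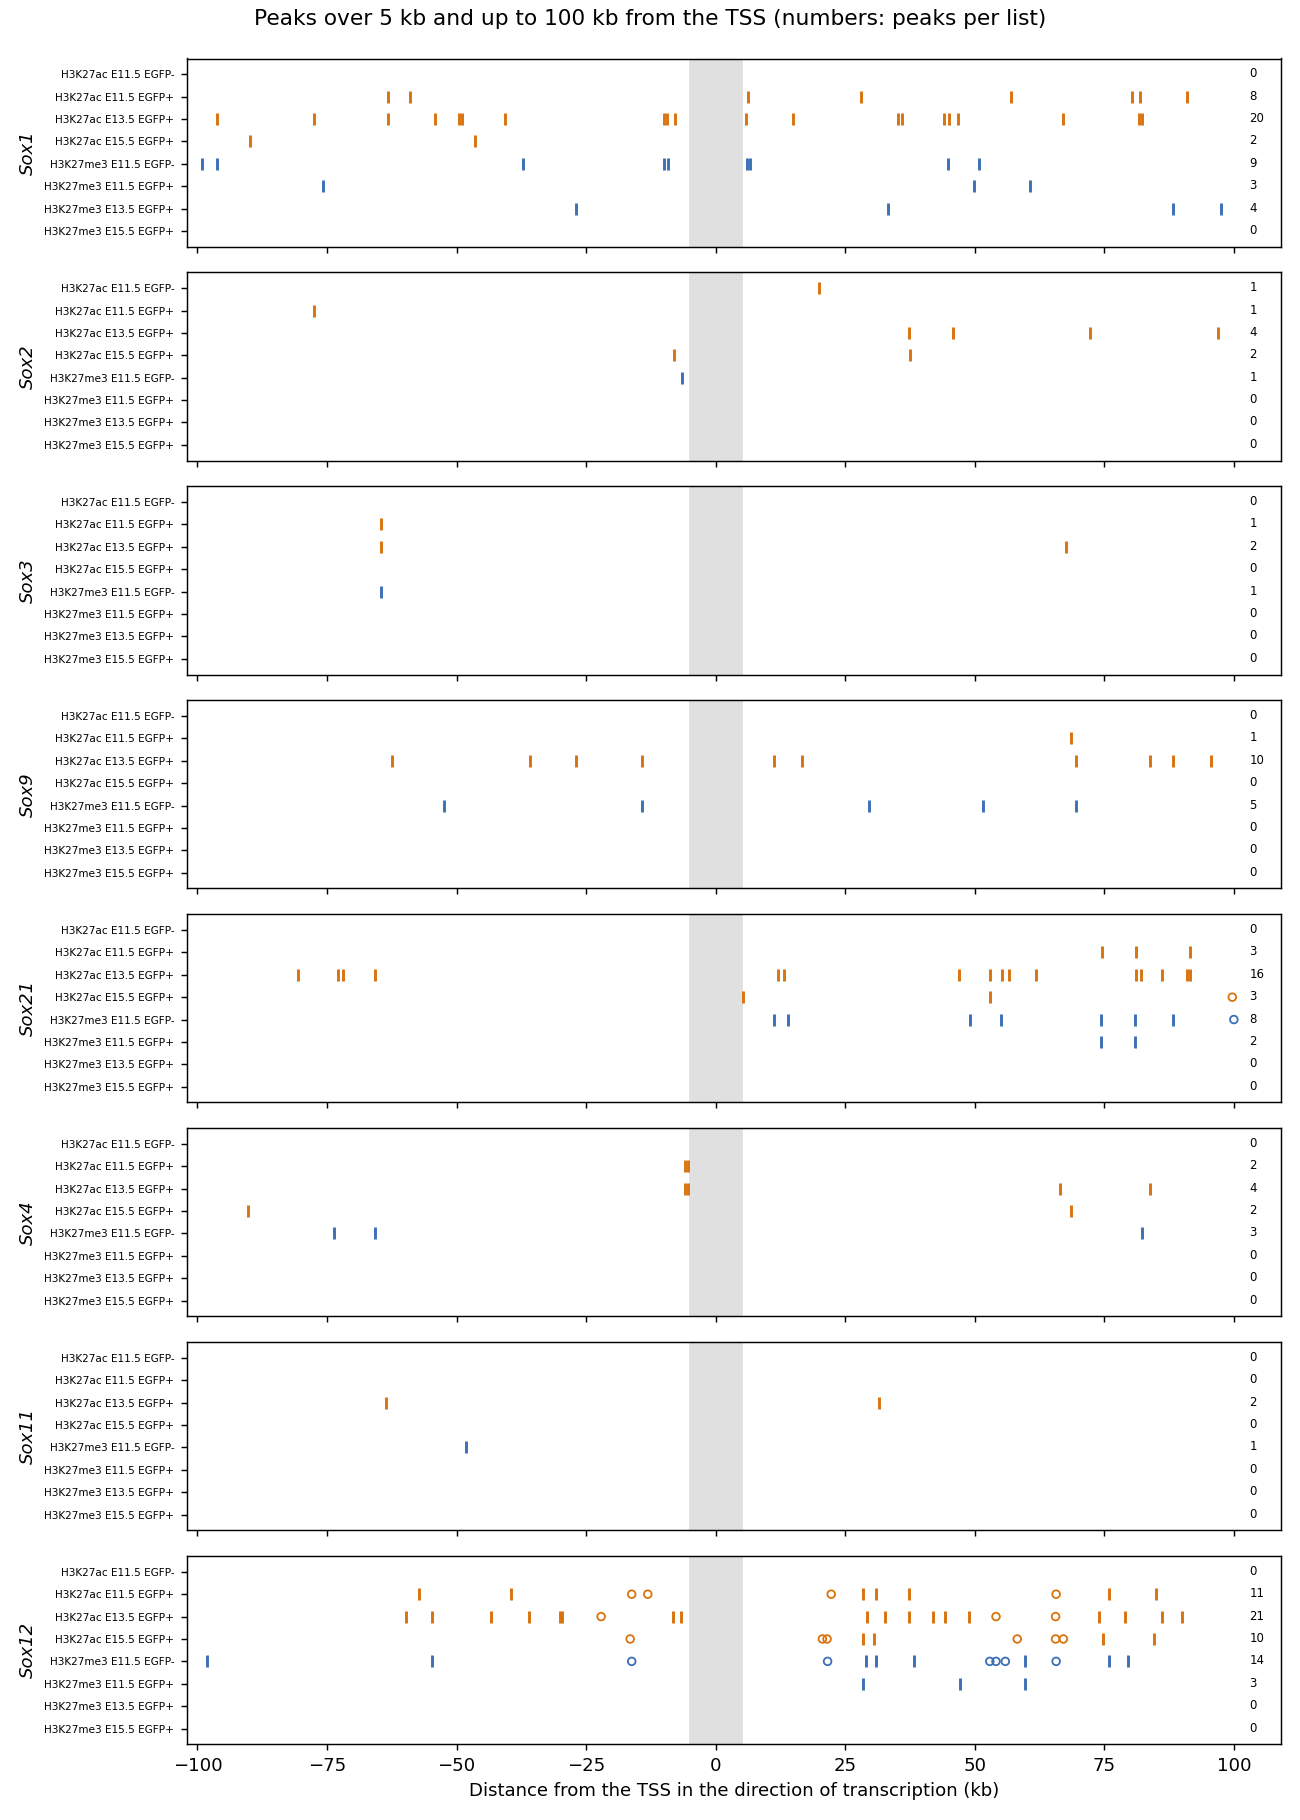
Peaks over 5 kb and up to 100 kb from each Sox TSS by distance in kb (x axis, positive in the direction of transcription), 1 row per list, with H3K27ac in orange, H3K27me3 in blue, and open circles for peaks within 5 kb of another protein-coding TSS. Numbers on the right are peaks per list, from 0 to 2 for Sox11 and up to 21 for Sox12 at E13.5.

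Base composition around the TSS was not used in the choice by name. Within 500 bp of the TSS, 7 of 8 had a GC content between 62.6% and 72.0%, and Sox4 had 53.0%, against a median of 54.7% over all protein-coding TSS. The ratio of observed to expected CpG was 0.74 to 0.97 for all 8, against a median of 0.55, and from 3.10% of TSS (for Sox12) to 29.6% (for Sox21) had a ratio at least as high. Promoter sequences of RefSeq (GRCm38.p6, from 250 bp before to 50 bp after the start) matched 6 members, not Sox3 and Sox9. The RefSeq start lay at -410 bp from the one used here for Sox2, the largest offset of the 6. Searched on both strands, CCAAT was found in 5 of 6 (all but Sox21) and in 37.4% of 32851 promoters. The E-box CAGCTG, the kind bound by proneural factors, was found in those of Sox4 and Sox11 (16.3% of promoters) and CAGATG in 0 of 6 (17.2%). Of the Sox-type motifs, ACAAAG was found in that of Sox2 (18.7%) and ACAATG in 0 of 6 (12.6%), and TATAAA was in 0 of 6 (13.6%). Of these 6 promoters, those of Sox11 and Sox12 overlapped E11.5 and E15.5 Ebf2-EGFP+ H3K27ac peaks by at least 1 bp. Those of Sox4 and Sox21 overlapped an E15.5 peak, and those of Sox1 and Sox2 no H3K27ac peak. All these overlaps were partial, and they were small at Sox4 and Sox21. The Sox4 promoter runs from base 28953650 to 28953949 of chr13, and the peak ended at 28953655. That of Sox21 runs from 118236981 to 118237280 of chr14, and the peak ended at 118237002.

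Genes with the most similar coverage over the 8 lists were found by Euclidean distance of log2(1 + bp), leaving out TSS within 10 kb of the member. For Sox2 these were Lefty2 (distance 0.279) and Csf1 (0.284), likewise with no H3K27ac peak listed at E15.5. Sox11 was nearest to Cpeb2 (0.569) and Ncoa2 (0.890), and Sox12 to Mtcl1 (1.01) and Zmynd11 (1.08), all of them with both marks in Ebf2-EGFP- cells. Sox4 was nearest to Kmt2e (0.636), which encodes a chromatin regulator, and Tle3 (0.675), a Groucho-type co-repressor. The nearest to Sox9 were Dnajc22 (0.514) and Gpr84 (0.630), and those of Sox1 Arhgef25 (0.449) and Plxnc1 (0.656). Sox3 was nearest to Nbn (0.457) and Ankrd13d (0.487), and Sox21 to Cby1 and Fam227a (both 0.303), which share 1 window. No member was among the 2 nearest genes of another.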

How the data were processed

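ChIP-seq for H3K27ac (antibody Ab4729) and H3K27me3 (Ab6002) was made in sorted cells. By the study's methods and processing notes, reads were aligned to mm10 with Bowtie 1.1.2 on Galaxy with at most 3 mismatches. MACS was used to call peaks (version not given in the sources used here, p of 1e-05). Whether replicates were pooled is not stated. The authors deposited 1 BED list per group, and the score deposited was 0 for every peak, so heights were not used. Starts were read as counted from 0 and are printed counted from 1, which may shift a start by 1 bp.

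Genes were those of GENCODE M21 on GRCm38, the assembly of mm10, each with its 5′ end as TSS. Peaks were counted within 5 kb, and over 5 kb up to 100 kb, with overlap of at least 1 bp, in Python 3.11.15 with pandas 2.3.3 and pysam 0.24.0, and the scripts were tested on simulated data. With 1 list per group no test was made. In the main results, counts of genes marked near the TSS stand beside the share of 21938 protein-coding TSS. Counts of where peaks lie within a gene have no such share. The members and lists were chosen with earlier results of these data known. All 8 members are described, other Sox genes are named where an Ebf2-EGFP+ list had H3K27me3 or as paralogues (Sry was named after its values were seen), and 2 most alike genes are given per member. Alternatives were windows of 1 and 2 kb, any transcript start, a limit of 50 kb, nearest gene only, peaks near other TSS left out, peaks of at least 300 bp, merging within 1 kb and the widest peaks in equal number. Alternatives for coverage (windows of 2 and 10 kb, 300 bp, and SoxB1 without Sox9) were added after seeing the data.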

Additional observations from a re-analysis of the deposited data

How the results depend on the processing

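Of 166 alternative values, 115 stayed within 1.5 times the main value in the same direction, 50 moved further and 1 reversed. The 115 include all alternatives of counts that were already 0, which narrower windows, filters and merging could not raise. Any annotated transcript start moved no value beyond 1.5 times. Only Sox12 has 2 such starts, so for the other members this setting could not differ from the main one. In what follows, H3K27ac values are given in the order E11.5 Ebf2-EGFP- and then Ebf2-EGFP+ by stage. The number of members marked near the TSS moved with the widest peaks only, in equal number (Ebf2-EGFP+ H3K27ac 4, 0 and 3 by stage, H3K27me3 of Ebf2-EGFP- 2), and with peaks of at least 300 bp (0 for H3K27ac and 3 for H3K27me3 in Ebf2-EGFP-). Peaks within the window, summed over members, were 13, 12 and 7 for Ebf2-EGFP+ H3K27ac and 7 for Ebf2-EGFP- H3K27me3 with a window of 1 kb, and 9 for E15.5 H3K27ac with 2 kb. They were 0, 10 and 7 for the first 3 H3K27ac lists and 3 for Ebf2-EGFP- H3K27me3 with peaks of at least 300 bp, 4, 0 and 4 for Ebf2-EGFP+ H3K27ac and 2 for Ebf2-EGFP- H3K27me3 with the widest peaks, and 13, 13 and 9 for Ebf2-EGFP+ H3K27ac after merging.

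Distal peaks were 0, 6, 7 and 4 for H3K27ac and 5, 0 and 0 for H3K27me3 (Ebf2-EGFP-, then E11.5 and E13.5 Ebf2-EGFP+) with peaks of at least 300 bp. They were 2, 0 and 0 for Ebf2-EGFP+ H3K27ac and 2, 1 and 1 for H3K27me3 with the widest peaks, 11, 39 and 9 and then 18, 3 and 2 with a limit of 50 kb, and 10, 44 and 6 and then 21 and 2 with the nearest gene only. Leaving out peaks near other TSS gave 12 for E15.5 H3K27ac. The ratio of SoxC to SoxB1 and Sox9 coverage was 1.93 at E13.5 within 2 kb and 19.3 at E15.5 with peaks of at least 300 bp. The E15.5 over E11.5 ratio of Sox21 reversed to 1.17 within 10 kb, and that of Sox4 was 1.13 within 2 kb, where its upstream peak is left out. Sox9 within 2 kb, and Sox3 and Sox9 with peaks of at least 300 bp, gave no ratio, because no peak was left at 1 of the stages. Alternatives that use fewer peaks lower counts by construction, and otherwise the cause was not tested.

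No paired analysis was possible because the result comes from no test: 1 list was used per group, without replicate columns, although the labels number the libraries. Leaving out a replicate was not run, since no list of a single replicate was used here. Depth is unknown and all scores were 0, so a missing peak and a shallow library cannot be told apart.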
